A study of Mus musculus with 21 samples.

Results

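The genes described here are 34 chemokines and chemokine receptors of the mouse, outside the Ccl21 copies of chromosome 4. They were chosen by gene symbol, each symbol was matched to a single Ensembl identifier, and they are 34 of the 55401 genes in the count table. Of these, 15 are CC ligands, 10 are CXC ligands, 1 is the CX3C ligand Cx3cl1, 6 are receptors and 2 are atypical receptors. They were measured by bulk RNA sequencing of the forebrains of 21 mice in 6 groups, which allowed a comparison of tau transgenic mice with their parental line and of APOE genotypes with each other.

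In all 6 groups the mouse Apoe gene was replaced on both chromosomes by a human APOE allele. E2H, E3H and E4H mice (3 in each group, 9 to 10 months old) carried APOE2, APOE3 and APOE4 and no tau transgene. The PS/E2H, the PS/E3H and the PS/E4H group (4 mice in each) carried the same alleles together with the PS19 transgene in heterozygous form, which expresses human tau with the P301S mutation from the mouse prion promoter, and they were killed when their hindlimbs were paralyzed. Tau genotype, paralysis and age at death therefore cannot be told apart wherever PS19 mice are set against mice without the transgene. The PS19 line was kept on a B6/C3H background and the APOE lines on C57BL6, and the PS19 groups came from the second generation of crosses, so remaining background differences cannot be told apart from the transgene either. The study's methods place females in the E4H, PS/E2H and PS/E4H groups but the labels do not give the sex of single mice, and its part in the results was not tested.

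Chemokines are small, mostly secreted proteins that direct the migration of leukocytes by binding G protein-coupled receptors, and they are classed as CC, CXC or CX3C by the spacing of conserved cysteines. Inflammatory chemokines are induced in myeloid cells, glia and vessel walls by cytokines, interferons and tissue damage, whereas homeostatic chemokines are made steadily. In the brain, neurons make Cx3cl1 for the receptor Cx3cr1 of microglia, and Cxcl12 acts on Cxcr4 and on the atypical receptor Ackr3, which removes the ligand without signalling through G proteins.

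The total count per mouse was 59265459 to 75932183. Levels are given as CPM (counts scaled to library size, with TMM factors over all 21 mice), with the mice of a group in the order of their replicate numbers, and as the authors' FPKM (fragments scaled to transcript length and library size) wherever genes are compared with each other. A gene was called when edgeR's quasi-likelihood test gave a Benjamini-Hochberg adjusted p under 0.05 over all genes tested and a fold change of at least 2, and every log2 fold change is given with its standard error (SE). The summed CPM of 7 forebrain neuron markers was 3643 to 4646 in every mouse, and that of 5 anterior pituitary markers was 0.756 to 10.6, with Prl lower in PS19 mice. Low counts came in steps of about 4: a count of 4 was found in 23659 values of the table and a count of 5 in 7160, so that the lowest CPM values rest on few such steps.

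Many of the ligands lie in clusters on the GRCm38 genome (GENCODE annotation). Ccl2, Ccl7, Ccl11, Ccl12 and Ccl8 lie on chromosome 11 between 82035571 and 82116799, and Ccl5, Ccl9, Ccl6, Ccl3 and Ccl4 on the same chromosome between 83525778 and 83664683. Cxcl5, Cxcl1 and Cxcl2 lie on chromosome 5 between 90759360 and 90905938, and Cxcl9, Cxcl10 and Cxcl11 on that chromosome between 92321347 and 92365485. Ccl22, Cx3cl1 and Ccl17 lie near each other on chromosome 8, as do Cxcr6, Ccr1 and Ccr2 on chromosome 9.

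Upstream windows of 5 genes are printed to show the sequence before the start sites of 3 ligands called higher with tau in each APOE line (Ccl3, Ccl6 and Ccl9), of a ligand of the interferon-induced kind (Cxcl10) and of a receptor (Ccr1). Each runs 5′ to 3′ on the strand of its gene over the 250 bases before the RefSeq start site of GRCm38.p6, and all 5 genes lie on the minus strand. Capitals mark matches to the NF-kB consensus or to the interferon-stimulated response element (ISRE, searched as 2 copies of GAAA with any 2 bases between them), on either strand and with overlapping matches merged. The windows are chr11:83649379-83649628 for Ccl3, chr11:83593088-83593337 for Ccl6, chr11:83578637-83578886 for Ccl9, chr5:92348890-92349139 for Cxcl10 and chr9:123968693-123968942 for Ccr1.
Ccl3: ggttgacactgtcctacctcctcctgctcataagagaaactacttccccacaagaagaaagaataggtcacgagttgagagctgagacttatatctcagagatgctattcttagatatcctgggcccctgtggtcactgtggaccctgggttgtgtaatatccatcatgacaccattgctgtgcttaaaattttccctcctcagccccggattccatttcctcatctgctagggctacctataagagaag
Ccl6: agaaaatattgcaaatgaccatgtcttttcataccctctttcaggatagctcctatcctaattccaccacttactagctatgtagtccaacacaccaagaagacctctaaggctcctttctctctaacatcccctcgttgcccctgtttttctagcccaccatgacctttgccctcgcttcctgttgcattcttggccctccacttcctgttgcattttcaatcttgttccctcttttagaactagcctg
Ccl9: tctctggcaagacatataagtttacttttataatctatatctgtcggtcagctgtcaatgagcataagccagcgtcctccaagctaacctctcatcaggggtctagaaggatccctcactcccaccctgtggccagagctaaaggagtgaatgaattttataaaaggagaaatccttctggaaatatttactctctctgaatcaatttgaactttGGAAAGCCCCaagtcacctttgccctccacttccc
Cxcl10: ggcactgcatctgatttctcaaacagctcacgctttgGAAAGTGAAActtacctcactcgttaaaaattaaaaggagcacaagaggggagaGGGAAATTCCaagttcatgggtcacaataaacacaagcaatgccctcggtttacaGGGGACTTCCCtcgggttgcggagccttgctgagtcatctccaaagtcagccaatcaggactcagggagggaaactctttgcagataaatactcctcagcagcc
Ccr1: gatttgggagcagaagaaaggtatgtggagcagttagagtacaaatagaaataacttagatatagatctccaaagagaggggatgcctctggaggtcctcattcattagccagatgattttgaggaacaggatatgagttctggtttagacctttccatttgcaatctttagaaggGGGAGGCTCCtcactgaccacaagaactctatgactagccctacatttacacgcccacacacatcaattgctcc

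The RefSeq table held a window for 26 of the 34 genes. Those not matched were Ccl2, Ccl4, Ccl5, Ccl7, Ccl11, Cxcl5, Cxcl11 and Cxcl16. In windows of 250 bases before and 50 after the start site, the ISRE was found in 2 of the 26 genes (Cxcl10 and Cxcl14) and in 3.99% of 27025 genes with a window. The NF-kB consensus was found in 7 of the 26 genes (Ccl9, Ccl27a, Cxcl1, Cxcl2, Cxcl10, Ccr1 and Ccr6) and in 9.55% of genes with a window. TATAAA was found in 9 of the 26 (Ccl8, Ccl9, Ccl12, Ccl25, Cxcl9, Cxcl13, Cx3cl1, Cxcr4 and Ackr3) and in 15.7% of genes with a window. These matches describe the letters in the window only. Among the printed windows, Cxcl10 held an ISRE match and 4 NF-kB matches, 3 of which overlap, Ccl9 and Ccr1 held 1 NF-kB match each, and Ccl3 and Ccl6 held neither.

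Levels per transcript length differed widely among the 34 genes. In the 9 parental mice Cx3cl1 was highest at 129 ± 13.3 FPKM (SD, n = 9), followed by Cxcl14 at 40.1 ± 4.49 FPKM. Next came Ackr1 at 22.8 ± 1.57 FPKM and Ccl27a at 21.8 ± 1.24 FPKM, whose ranges overlapped. Cxcl12 at 6.27 ± 0.979 FPKM and Ackr3 at 2.56 ± 0.395 FPKM were the fifth and sixth, and each of these was apart from its neighbours in every mouse. From Ccl6 at 1.04 ± 0.290 FPKM downwards, each gene overlapped the next in the order. The genes at the head of the order are some of the homeostatic ligands and the atypical receptors. The inflammatory ligands, the leukocyte receptors and other homeostatic ligands (Ccl25, Ccl28 and Cxcl13) were all near or under 1 FPKM. A mean of at least 1 FPKM was reached by 7 genes in parental mice and by 18 genes in the 12 PS19 mice.

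Some of these levels rest on sequence that is shared with other genes. Ackr1 overlaps Cadm3 on the same strand, and 20.4% of all stretches of 50 bases in its transcripts recur in another gene, most of all in Cadm3, which was read at 349 to 498 CPM. Of such stretches in Ccl27a, 45% recur in copies such as Gm20878 and Gm13306, so its counts could be divided among these copies. The shared fraction was 5.84% for Cxcl2 (with Cxcl3), under 2% for Ccl9 and Ccr2 and under 1% for each of the other genes. Genes on the opposite strand overlap Ccl2, Ccl6, Ccl25, Ccl27a, Cxcl10, Cxcl11, Cxcl16 and Cxcr6; the libraries were stranded, but the sources used here do not give whether the counting used the strand.

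**Figure D1:**
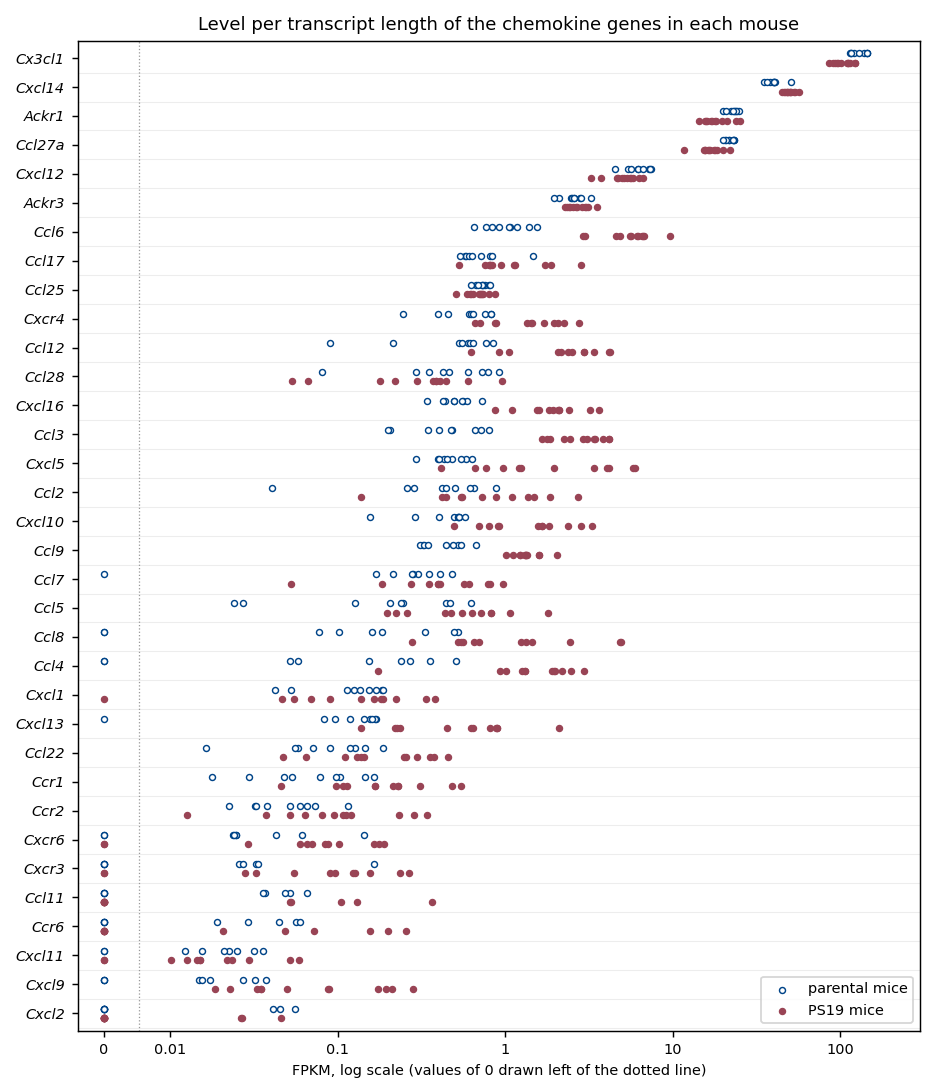
FPKM of each of the 34 genes in each mouse (log axis, with values of 0 drawn to the left of the dotted line); open circles are the 9 parental mice, filled circles the 12 PS19 mice, and genes are ordered by their mean in parental mice. Cx3cl1, Cxcl14, Ackr1 and Ccl27a stand above 10 FPKM in every mouse, and the filled circles of Ccl6, Cxcl16, Ccl3 and Ccl9 lie wholly to the right of the open ones.

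The comparison of PS19 mice with parental mice asked which of these genes changed with the tau transgene and paralysis. In the fit over all 21 mice with a term for APOE line, 32 of the 34 genes were tested, and 16 were called higher and 0 lower in PS19 mice. Of all genes tested in that fit, 2.24% were called higher and 0.367% lower. The 16 were 8 of 15 CC ligands (Ccl2, Ccl3, Ccl4, Ccl6, Ccl8, Ccl9, Ccl12 and Ccl22), 5 of 10 CXC ligands (Cxcl5, Cxcl9, Cxcl10, Cxcl13 and Cxcl16) and 3 of 6 receptors (Ccr1, Ccr2 and Cxcr4). The median log2 fold change of the 32 genes was 1.28 and that of all genes tested was -0.006. With the adjusted p alone, Cxcl14 was also higher and Ccl27a, Cx3cl1, Ackr1 and Cxcl12 were lower, each by less than 2-fold; in all genes these shares were 11.4% and 9.63%. In whole tissue, more cells of a type and more RNA per cell cannot be told apart.

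The 12 PS19 mice lay wholly above the 9 parental mice for 4 of the 32 genes tested (Ccl3, Ccl6, Ccl9 and Cxcl16) and wholly below for 0, against 1.38% and 0.149% of all genes tested.

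Ccl6, a CC ligand of myeloid cells that acts on Ccr1, showed the smallest adjusted p of the 34 genes. Ccl6 was measured at 1.63, 2.28 and 2.33 CPM in E2H, 2.98, 1.42 and 2.61 CPM in E3H and 1.79, 1.26 and 2.04 CPM in E4H mice. In the transgenic groups Ccl6 stood at 9.69, 6.03, 11.8 and 5.78 CPM in PS/E2H, 9.11, 12.8, 12.5 and 18.7 CPM in PS/E3H and 12.8, 12.4, 11.2 and 10.5 CPM in PS/E4H mice. Every PS19 mouse was above every parental mouse, and PS/E3H replicate 4 was the highest. Over the lines, the log2 fold change was 2.43 ± 0.18 (SE, adjusted p = 4.08e-09), a fold of 5.38, and within lines it was 2.0 ± 0.29 in PS/E2H (adjusted p = 0.0164), 2.49 ± 0.29 in PS/E3H (adjusted p = 0.00251) and 2.78 ± 0.18 in PS/E4H (adjusted p = 4.37e-05). Ccl6 was called in each line.

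Ccl3, known as a ligand of Ccr1 that recruits macrophages, was called higher in each line. Ccl3 read 0.411, 0.371 and 0.179 CPM in E2H, 0.393, 0.272 and 0.635 CPM in E3H and 0.550, 0.173 and 0.605 CPM in E4H mice. The PS19 mice read 2.07, 1.52, 2.79 and 1.42 CPM in PS/E2H, 1.59, 3.39, 2.47 and 2.85 CPM in PS/E3H and 3.43, 1.89, 2.49 and 3.10 CPM in PS/E4H mice. The groups did not overlap, and the lowest PS19 mouse was PS/E2H replicate 4. The log2 fold change was 2.59 ± 0.23 over the lines (adjusted p = 6.74e-08), with 2.60 ± 0.40 in PS/E2H (adjusted p = 0.0231), 2.54 ± 0.37 in PS/E3H (adjusted p = 0.00669) and 2.62 ± 0.41 in PS/E4H mice (adjusted p = 0.00325). Its neighbour Ccl4, which also attracts macrophages and T cells, was low in the parental groups, with 0.172, 0.406 and 0 CPM in E2H, 0.203, 0.240 and 0.0519 CPM in E3H and 0.119, 0.0398 and 0 CPM in E4H mice. In PS19 mice Ccl4 was at 0.749, 1.45, 0.942 and 0.135 CPM in PS/E2H, 0.941, 0.669, 0.908 and 1.77 CPM in PS/E3H and 1.55, 2.16, 1.40 and 1.38 CPM in PS/E4H mice. All PS19 mice but PS/E2H replicate 4 exceeded every parental mouse. The log2 fold change of Ccl4 was 3.09 ± 0.55 over the lines (adjusted p = 3.00e-04), and it was called in PS/E3H (2.69, adjusted p = 0.0251) and PS/E4H (4.92, adjusted p = 0.00164) but not in PS/E2H (2.11, adjusted p = 0.505).

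Ccl9, which like Ccl6 is a Ccr1 ligand of rodents, was likewise called in each line. Parental mice gave 1.07, 1.61 and 1.75 CPM in E2H, 2.20, 0.977 and 1.74 CPM in E3H and 1.09, 1.61 and 1.14 CPM in E4H mice for Ccl9. Transgenic mice gave 3.74, 5.42, 4.0 and 4.42 CPM in PS/E2H, 4.13, 4.27, 4.18 and 6.74 CPM in PS/E3H and 4.35, 3.43, 4.58 and 5.09 CPM in PS/E4H mice. The mice of the 3 PS19 groups overlapped each other, apart from PS/E3H replicate 4, which was highest of all. Ccl9 had a log2 fold change of 1.63 ± 0.15 over the lines (adjusted p = 7.59e-08) and of 1.57 ± 0.24, 1.54 ± 0.29 and 1.76 ± 0.22 in the E2H, E3H and E4H lines (adjusted p = 0.0227, 0.0182 and 0.00100).

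Ligands of Ccr2, the receptor that brings monocytes into tissue, did not all pass the test. Ccl12 was found at 0.318, 0.389 and 0.454 CPM in E2H, 0.502, 0.0640 and 0.35 CPM in E3H and 0.372, 0.319 and 0.134 CPM in E4H mice. With the transgene Ccl12 was found at 2.04, 2.51, 1.38 and 0.388 CPM in PS/E2H, 0.646, 1.18, 1.20 and 2.47 CPM in PS/E3H and 1.70, 1.48, 0.552 and 1.66 CPM in PS/E4H mice. All PS19 mice but PS/E2H replicate 4 were above the parental range. The log2 fold change of Ccl12 was 2.15 ± 0.35 over the lines (adjusted p = 1.01e-04), and within lines it was called in PS/E4H only (2.29, adjusted p = 0.0136), with 2.02 in PS/E2H (adjusted p = 0.177) and 2.13 in PS/E3H (adjusted p = 0.0747).

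Ccl2 was more variable. Its parental values were 0.0531, 0.371 and 0.523 CPM in E2H, 0.366, 0.768 and 1.05 CPM in E3H and 0.550, 0.637 and 0.767 CPM in E4H mice. Its values in PS19 mice were 0.561, 1.13, 1.36 and 1.74 CPM in PS/E2H, 0.183, 0.669, 0.876 and 2.30 CPM in PS/E3H and 3.35, 0.708, 0.552 and 1.77 CPM in PS/E4H mice. Of the 12 PS19 mice, 6 lay within the parental range. Ccl2 was called over the lines at a log2 fold change of 1.19 ± 0.42 (adjusted p = 0.0481) and in no single line. The call was lost without any of 14 of the 21 mice (all parental mice but E3H replicate 3, PS/E2H replicates 2 to 4, PS/E3H replicate 4 and PS/E4H replicates 1 and 4), where the log2 fold change was 0.98 to 1.25 and the adjusted p 0.0541 to 0.126. Ccl7, the third ligand of Ccr2 in the set, had a log2 fold change of 0.84 ± 0.47 and was not called (adjusted p = 0.223).

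Ccl8, a further ligand of the same chromosomal cluster, was at or near 0 in E3H mice, where 2 of 3 mice had no count. Parental values of Ccl8 were 0.292, 0.30 and 0.0551 CPM in E2H, 0, 0 and 0.104 CPM in E3H and 0.0595, 0.0929 and 0.188 CPM in E4H mice. PS19 values of Ccl8 were 0.317, 0.376, 0.390 and 0.320 CPM in PS/E2H, 0.168, 0.669, 0.781 and 2.69 CPM in PS/E3H and 2.72, 1.38, 0.309 and 0.716 CPM in PS/E4H mice. PS/E3H replicate 4 and PS/E4H replicate 1 stood far above the others, PS/E3H replicate 1 lay within the parental range, and the PS/E2H mice were all just above the E2H mice. Ccl8 was called over the lines (2.79 ± 0.67, adjusted p = 0.00428), in PS/E3H (4.80 ± 1.19, adjusted p = 0.0439) and in PS/E4H (3.46 ± 0.77, adjusted p = 0.0147), and its log2 fold change was 0.70 ± 0.63 in PS/E2H (adjusted p = 0.784). The call in PS/E3H held in only 1 of 7 fits that left out a mouse (PS/E3H replicate 1); without any other mouse the log2 fold change was 3.81 to 9.18 and the adjusted p 0.0604 to 0.168. It was also lost without a filter on low counts (adjusted p = 0.0868).

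Of the pair of Ccr4 ligands, Ccl22 was called over the lines and Ccl17 was not. Ccl22 values were 0.478, 0.177 and 0.151 CPM in E2H, 0.190, 0.352 and 0.311 CPM in E3H and 0.298, 0.0531 and 0.229 CPM in E4H mice. They were 0.360, 0.684, 0.633 and 0.287 CPM in PS/E2H, 0.379, 0.749, 0.861 and 1.15 CPM in PS/E3H and 0.937, 0.346, 0.130 and 0.171 CPM in PS/E4H mice. Ccl22 lay within the parental range in 6 of the 12 PS19 mice. Its log2 fold change was 1.12 ± 0.37 over the lines (adjusted p = 0.0343), and it was not called in any line. The Ccl22 call was lost without any of 8 mice (E2H replicate 3, the 3 E3H mice, E4H replicate 2, PS/E2H replicate 2, PS/E3H replicate 4 or PS/E4H replicate 1), with an adjusted p of 0.0525 to 0.0915. Ccl17 had a log2 fold change of 0.57 ± 0.24 (adjusted p = 0.0952).

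Cxcl16, which occurs as a transmembrane and a soluble ligand of Cxcr6, was the only CXC ligand to separate every PS19 from every parental mouse. Cxcl16 came to 1.14, 1.77 and 1.84 CPM in E2H, 1.93, 2.27 and 1.75 CPM in E3H and 1.43, 1.39 and 1.64 CPM in E4H mice. In PS19 mice it came to 5.34, 5.23, 6.32 and 2.92 CPM in PS/E2H, 3.72, 7.68, 6.49 and 10.5 CPM in PS/E3H and 11.7, 6.99, 6.13 and 6.64 CPM in PS/E4H mice. The lowest PS19 mouse was PS/E2H replicate 4 and the highest was PS/E4H replicate 1. Cxcl16 had a log2 fold change of 1.96 ± 0.19 over the lines (adjusted p = 1.69e-07) and was called in each, at 1.64 ± 0.29 in PS/E2H (adjusted p = 0.0424), 1.83 ± 0.31 in PS/E3H (adjusted p = 0.0121) and 2.40 ± 0.25 in PS/E4H (adjusted p = 3.63e-04). Its receptor Cxcr6 was at 0 to 0.298 CPM in parental and 0 to 0.398 CPM in PS19 mice and was not called (log2 fold change 1.43 ± 0.72, adjusted p = 0.174).

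The interferon-induced ligands of Cxcr3 were uneven. Cxcl10 was detected at 0.385, 1.34 and 1.31 CPM in E2H, 1.30, 1.22 and 0.726 CPM in E3H and 1.31, 0.982 and 1.41 CPM in E4H mice. Its PS19 levels were 5.92, 4.19, 4.43 and 2.28 CPM in PS/E2H, 1.25, 1.70, 2.18 and 4.05 CPM in PS/E3H and 6.87, 3.95, 2.01 and 7.78 CPM in PS/E4H mice. All PS19 mice but PS/E3H replicate 1 exceeded the parental range. Cxcl10 had a log2 fold change of 1.73 ± 0.29 over the lines (adjusted p = 1.32e-04) and was called in PS/E4H (2.06, adjusted p = 0.0103), with 2.06 in PS/E2H (adjusted p = 0.0859) and 1.08 in PS/E3H (adjusted p = 0.149).

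Cxcl9 was far lower, with 0, 0.124 and 0 CPM in E2H, 0.0678, 0.128 and 0.0519 CPM in E3H and 0.0595, 0.0929 and 0 CPM in E4H mice. The PS19 mice had 0.720, 0.120, 0.292 and 0.961 CPM in PS/E2H, 0.0842, 0.112, 0.175 and 0.114 CPM in PS/E3H and 0.647, 0.0659, 0.585 and 0.296 CPM in PS/E4H mice for Cxcl9. In 5 of the 12 PS19 mice, among them 3 of the 4 PS/E3H mice, Cxcl9 stayed within the parental range. Cxcl9 was called over the lines (2.34 ± 0.70, adjusted p = 0.0196) and in no single line, and in the comparison of PS/E3H with E3H it was too low to be tested. Cxcl11 ranged from 0 to 0.159 CPM in parental and from 0 to 0.247 CPM in PS19 mice and had a log2 fold change of 0.08 ± 0.73 (adjusted p = 0.962). Their receptor Cxcr3 was at 0 to 0.312 and 0 to 0.494 CPM and was not called (log2 fold change 1.84 ± 0.86, adjusted p = 0.138).

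Of the neutrophil-attracting ligands of Cxcr2, Cxcl5 was called and Cxcl1 was not, while Cxcl2 was too low to be tested. Cxcl5 gave 0.982, 1.31 and 1.29 CPM in E2H, 0.868, 1.04 and 0.882 CPM in E3H and 0.803, 0.823 and 0.605 CPM in E4H mice. With tau, Cxcl5 gave 1.60, 1.40, 6.84 and 0.877 CPM in PS/E2H, 2.57, 3.85, 7.81 and 12 CPM in PS/E3H and 11.6, 2.03, 2.52 and 8.18 CPM in PS/E4H mice. The parental mice were close together, whereas the PS19 mice differed more than 10-fold and 1 of them, PS/E2H replicate 4, lay within the parental range. Cxcl5 had a log2 fold change of 2.32 ± 0.43 over the lines (adjusted p = 4.21e-04), was called in PS/E3H (2.80, adjusted p = 0.0129) and PS/E4H (3.03, adjusted p = 0.00931), and was at 1.16 in PS/E2H (adjusted p = 0.574). Cxcl1 was at 0.0908 to 0.424 CPM in parental and 0 to 0.784 CPM in PS19 mice (log2 fold change 0.25 ± 0.48, adjusted p = 0.781), and Cxcl2 had more than 4 counts in 3 of 9 parental and 1 of 12 PS19 mice.

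Cxcl13, the ligand that guides B cells through Cxcr5, was measured at 0.199, 0.247 and 0.220 CPM in E2H, 0.190, 0 and 0.195 CPM in E3H and 0.149, 0.133 and 0.108 CPM in E4H mice. PS19 mice had Cxcl13 at 0.806, 0.837, 1.12 and 0.287 CPM in PS/E2H, 0.183, 0.558, 0.972 and 2.61 CPM in PS/E3H and 1.12, 0.313, 0.292 and 1.06 CPM in PS/E4H mice. All PS19 mice but PS/E3H replicate 1 exceeded the parental range, and PS/E3H replicate 4 was highest. Cxcl13 was called over the lines (2.39 ± 0.47, adjusted p = 8.41e-04) and in PS/E4H (2.40, adjusted p = 0.0302), with 1.77 in PS/E2H (adjusted p = 0.208) and 3.01 in PS/E3H (adjusted p = 0.108).

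Among the receptors, Cxcr4 was the most abundant. Cxcr4 was read at 1.5, 0.530 and 1.21 CPM in E2H, 0.895, 1.52 and 1.56 CPM in E3H and 0.774, 1.22 and 1.26 CPM in E4H mice. Under the transgene it was read at 1.76, 1.35, 3.31 and 2.92 CPM in PS/E2H, 1.43, 3.97, 2.68 and 5.37 CPM in PS/E3H and 4.38, 3.89, 1.77 and 2.57 CPM in PS/E4H mice. All PS19 mice but PS/E2H replicate 2 and PS/E3H replicate 1 exceeded the parental range. Cxcr4 had a log2 fold change of 1.33 ± 0.25 over the lines (adjusted p = 4.25e-04), was called in PS/E4H (1.53, adjusted p = 0.0142) and stood at 1.09 in PS/E2H (adjusted p = 0.368) and 1.33 in PS/E3H (adjusted p = 0.0862).

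Ccr1, the receptor of Ccl3, Ccl6 and Ccl9, was low throughout, with 0.252, 0.194 and 0.523 CPM in E2H, 0.325, 0.432 and 0.298 CPM in E3H and 0.0595, 0.146 and 0.0941 CPM in E4H mice. Ccr1 in PS19 mice was 0.533, 0.154, 1.46 and 0.540 CPM in PS/E2H, 0.365, 0.924, 0.637 and 1.68 CPM in PS/E3H and 0.711, 0.346, 0.731 and 0.296 CPM in PS/E4H mice. Of the 12 PS19 mice, 4 lay within the parental range (PS/E2H replicate 2, PS/E3H replicate 1 and PS/E4H replicates 2 and 4). The E4H mice were below every E2H and E3H mouse, while the PS/E4H mice overlapped the other PS19 groups. Ccr1 was called over the lines (1.53 ± 0.37, adjusted p = 0.00459) and in PS/E4H (2.35, adjusted p = 0.0262), and the other lines gave 1.03 (PS/E2H, adjusted p = 0.686) and 1.35 (PS/E3H, adjusted p = 0.162).

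Ccr2 values were 0.438, 0.194 and 0.248 CPM in E2H, 0.488, 0.368 and 0.830 CPM in E3H and 0.283, 0.252 and 0.551 CPM in E4H mice. Ccr2 reached 0.101, 0.393, 0.910 and 0.287 CPM in PS/E2H, 0.716, 0.781, 1.64 and 2.51 CPM in PS/E3H and 2.10, 0.478, 0.861 and 0.576 CPM in PS/E4H mice. Only 5 of the 12 PS19 mice exceeded the parental range. Ccr2 was called over the lines (1.11 ± 0.37, adjusted p = 0.0325) and in no line. That call was lost without any of 7 mice (E3H replicates 1 and 2, E4H replicates 1 and 2, PS/E2H replicate 3, PS/E3H replicate 4 or PS/E4H replicate 1), with an adjusted p of 0.065 to 0.073. Ccr6, the receptor of Ccl20, was at 0 in the 3 E2H mice and at 0 in 6 of the 12 PS19 mice, and was not called (log2 fold change 1.23 ± 1.16, adjusted p = 0.516).

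**Figure D2:**
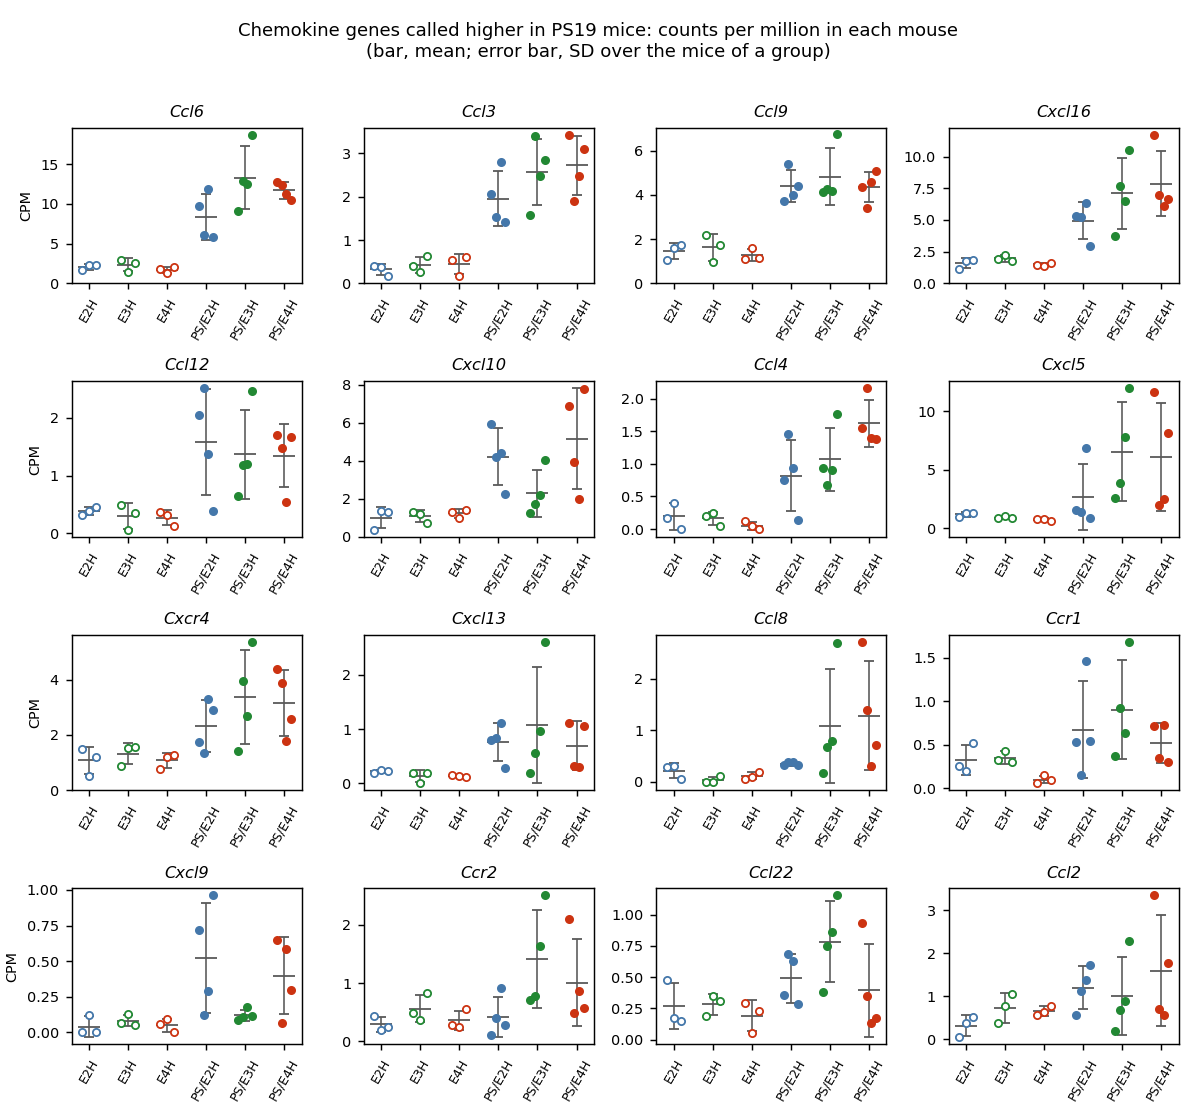
CPM of the 16 genes called higher in PS19 mice over all lines, in order of their adjusted p; open circles are parental mice, filled circles PS19 mice, horizontal bars group means and error bars the SD over 3 or 4 mice. Ccl6, Ccl3, Ccl9 and Cxcl16 separate all PS19 from all parental mice, while Ccl22 and Ccl2, at the end of the order, overlap in 6 of the 12 PS19 mice.

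Cx3cl1, Cxcl14, Ccl27a, Ackr1, Cxcl12 and Ackr3, the genes at the head of the order by FPKM, moved by less than 2-fold over the lines. Cx3cl1, the neuronal ligand, was at 495, 562 and 487 CPM in E2H, 608, 555 and 592 CPM in E3H and 542, 609 and 491 CPM in E4H mice. In PS19 mice Cx3cl1 was at 482, 536, 471 and 479.8 CPM in PS/E2H, 538, 386, 413 and 407 CPM in PS/E3H and 362, 394, 497 and 399 CPM in PS/E4H mice. Of the 12 PS19 mice, 9 were below every parental mouse, and PS/E2H replicate 2 was the highest of the PS/E2H mice. Its log2 fold change over the lines was -0.30 ± 0.07 (adjusted p = 0.00361), with -0.07 ± 0.09 in PS/E2H (adjusted p = 0.853), -0.44 ± 0.11 in PS/E3H (adjusted p = 0.0429) and -0.41 ± 0.11 in PS/E4H (adjusted p = 0.0316). The median of the log2 fold changes of the 7 neuron markers was -0.20 over the lines, with 0 of 7 called. Their part in the change of Cx3cl1 was not tested.

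Of these genes, only Cxcl14, a homeostatic ligand whose main receptor is unsettled, was higher at an adjusted p under 0.05. It was at 79.5 ± 12.2 CPM (SD, n = 9) in parental mice and 98.8 ± 8.45 CPM (SD, n = 12) in PS19 mice, with a log2 fold change of 0.31 ± 0.07 (adjusted p = 0.00172). E2H replicate 2 had 111 CPM, above 11 of the 12 PS19 mice. Ccl27a, a ligand of Ccr10, was lower in PS19 mice (56.3 ± 4.66 against 44.0 ± 7.38 CPM, log2 fold change -0.36 ± 0.07, adjusted p = 6.08e-04), with 10 of the 12 PS19 mice below every parental mouse. The sequence that Ccl27a shares with the copies named above applies to these values.

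Ackr1, the atypical receptor of venules and red cells that binds many inflammatory chemokines, had 34.6 ± 3.03 CPM in parental and 28.2 ± 5.68 CPM in PS19 mice (log2 fold change -0.31 ± 0.08, adjusted p = 0.00694). The overlap of Ackr1 with Cadm3 applies to these values. The 5 erythroid markers summed to 190 to 778 CPM in parental and 29.1 to 379 CPM in PS19 mice, with a median log2 fold change of -0.97 over the lines and 0 of 5 called, and their part in the level of Ackr1 was not tested. Cxcl12 stood at 55.3 ± 7.07 CPM in parental and 45.6 ± 8.33 CPM in PS19 mice, a log2 fold change of -0.27 ± 0.09 (adjusted p = 0.0384), and 4 of the 12 PS19 mice were below every parental mouse. Ackr3, which shares Cxcl12 with Cxcr4, had a log2 fold change of 0.10 ± 0.10 and was not called (adjusted p = 0.541).

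The remaining genes did not pass either threshold. Ccl5, a ligand of Ccr1, was just outside, with a log2 fold change of 1.36 ± 0.49 over the lines (adjusted p = 0.0540). Ccl25, the ligand of Ccr9, was steady at 5.43 to 6.44 CPM in parental and 4.03 to 7.18 CPM in PS19 mice (log2 fold change -0.07 ± 0.09, adjusted p = 0.648). Ccl28, a mucosal ligand of Ccr10, varied more than 10-fold between mice of either kind and had a log2 fold change of -0.47 ± 0.41 (adjusted p = 0.471). Ccl11, the ligand of eosinophils, was too low to be tested and had 4 counts or fewer in 8 of 9 parental and 9 of 12 PS19 mice.

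**Figure D3:**
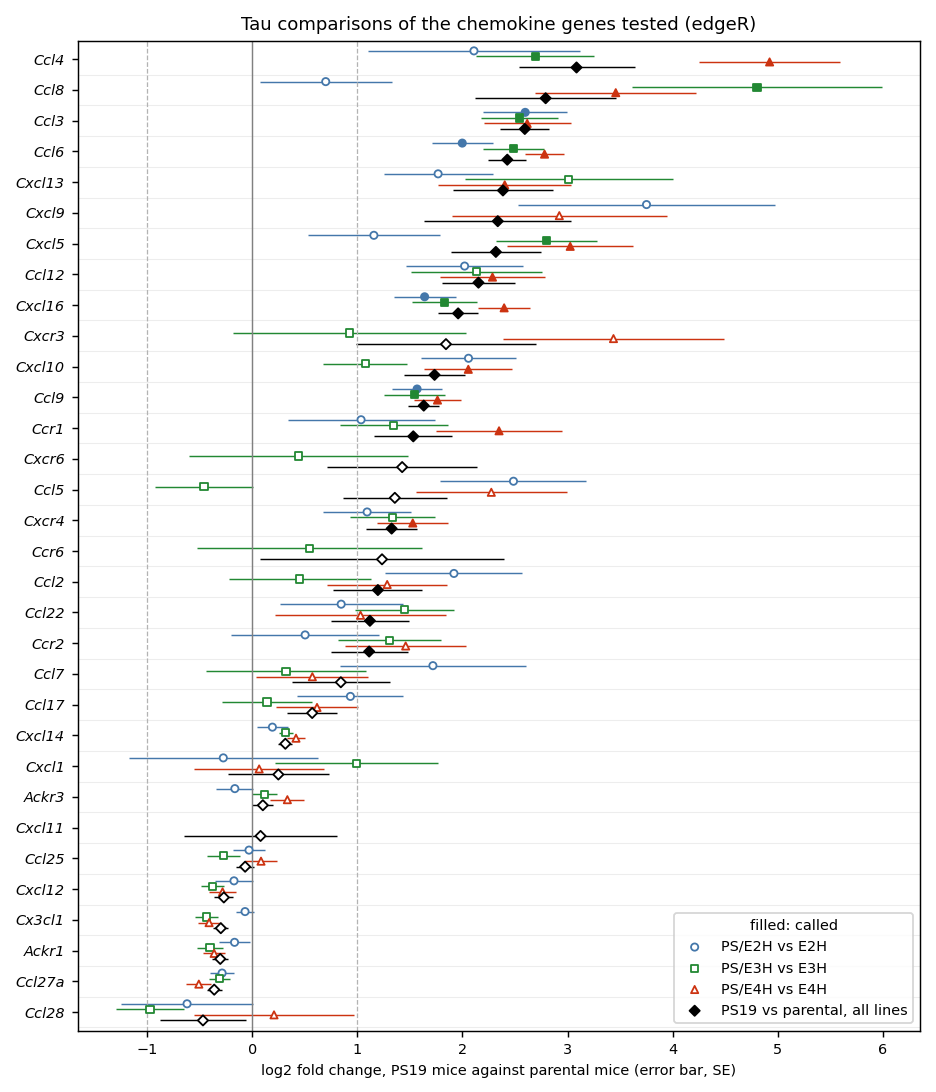
Log2 fold change of PS19 against parental mice with its SE for the 32 genes tested over all lines (black diamonds) and for PS/E2H (blue circles), PS/E3H (green squares) and PS/E4H (red triangles) against their own line; filled symbols were called. The 16 filled diamonds lie between 1.11 (Ccr2) and 3.09 (Ccl4), and Cxcl12, Cx3cl1, Ackr1 and Ccl27a lie just below 0.

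Within lines, 4 of 28 genes tested were called higher in PS/E2H (Ccl3, Ccl6, Ccl9 and Cxcl16), 7 of 30 in PS/E3H (these 4 with Ccl4, Ccl8 and Cxcl5) and 12 of 29 in PS/E4H (these 7 with Ccl12, Cxcl10, Cxcl13, Ccr1 and Cxcr4), and 0 were called lower. Of all genes tested, 0.451%, 1.2% and 2.4% were called higher and 0.034%, 0.127% and 0.581% lower in the same comparisons. The median log2 fold change of the genes tested was 1.06 in PS/E2H, 0.96 in PS/E3H and 1.53 in PS/E4H, against a median within 0.02 of 0 over all genes. Groups did not overlap for 10 genes higher and 0 lower in PS/E2H (6.67% and 5.05% of all genes), for 10 higher and 2 lower in PS/E3H (10.5% and 8.75%), and for 16 higher and 2 lower in PS/E4H (15% and 13.8%).

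These counts depended on single mice. In PS/E2H, 0 of the 4 genes were called without E2H replicate 1, E2H replicate 3 or PS/E2H replicate 1, 2 without E2H replicate 2 or PS/E2H replicate 3, 3 without PS/E2H replicate 2, and 5 without PS/E2H replicate 4; the adjusted p of the lost calls was 0.0514 to 0.158. In PS/E3H, the count fell to 1 (Ccl6) without E3H replicate 1, 3 without E3H replicate 2 and 2 without E3H replicate 3, and rose to 13 without PS/E3H replicate 1. There Ccl9 and Cxcl5 were lost without any of the E3H mice (adjusted p = 0.0527 to 0.0799), Ccl4 without any E3H mouse or PS/E3H replicate 4 (0.064 to 0.0977), Cxcl16 without E3H replicate 1 or 3 (0.0675 to 0.0708) and Ccl3 without E3H replicate 1 (0.0532). In PS/E4H it was 6 without E4H replicate 2 and 8 to 13 without any other mouse. Ccl12 (adjusted p = 0.0553) and Cxcl10 (0.0605) were lost without E4H replicate 2, and Ccl8 and Cxcr4 without E4H replicate 1 or 2 (0.0546 to 0.0766). Cxcl13 was lost without any E4H mouse or PS/E4H replicate 1 or 4 (0.0621 to 0.113), and Ccr1 without any E4H mouse or PS/E4H replicate 1 or 3 (0.0507 to 0.105). Ccl6 in PS/E3H and PS/E4H, and Ccl3, Ccl4, Ccl9, Cxcl5 and Cxcl16 in PS/E4H, were called whichever mouse was left out.

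Whether the effect of tau differed between lines was tested as an interaction. Of 31 genes tested in each of the 3 pairs of lines, 0 had an adjusted p under 0.05 by edgeR or by DESeq2, and 0% of all genes did for each pair. The unadjusted p was under 0.05 for 5 genes between E2H and E3H, 2 between E4H and E3H and 3 between E4H and E2H, against 5.72%, 3.81% and 10.1% of all genes. The larger number of calls in PS/E4H than in PS/E2H is thus not shown to be a difference between lines for any of these genes. Ccl5 had the smallest unadjusted p between E2H and E3H (0.00318, adjusted p = 0.843) and between E4H and E3H (0.00588, adjusted p = 1.0). Its log2 fold change with tau was 2.49 ± 0.69 in PS/E2H, -0.46 ± 0.46 in PS/E3H and 2.27 ± 0.72 in PS/E4H mice. Ccl5 was singled out after its values were seen, as were the genes named between APOE groups.

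The 16 genes rose unevenly among the mice of a group. PS/E3H replicate 4 was the highest of its group for 14 of the 16 genes and PS/E3H replicate 1 the lowest for 15. PS/E4H replicate 1 was the highest of its group for 12, PS/E2H replicate 3 the highest for 9 and PS/E2H replicate 4 the lowest for 9. These ranks cover the 16 called genes only and were not taken over all genes, so they may not be particular to chemokine genes. The coefficient of variation of Cxcl5 was 104% in PS/E2H, 64.8% in PS/E3H and 76.0% in PS/E4H mice. For Ccl6 it was 35.2%, 29.9% and 8.97% in the same order, and for Cx3cl1 6.07%, 15.8% and 14.2%.

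Markers of cell types were read in the same mice, and their relation to these genes was not tested. The 8 microglia markers summed to 341 to 444 CPM in parental mice, and in PS19 mice to 416 to 694 CPM in PS/E2H, 520 to 729 CPM in PS/E3H and 657 to 811 CPM in PS/E4H. PS/E2H replicate 4 and PS/E3H replicate 1 were the lowest of the PS19 mice, and PS/E4H replicate 1 was the highest. Among these markers, Aif1 and Fcrls were called higher over the lines. The 6 markers of brain border macrophages summed to 7.56 to 14.5 CPM in parental and 17.6 to 34.2 CPM in PS19 mice, without overlap, and 4 of 6 were called higher (Mrc1, Lyve1, F13a1 and Ms4a7).

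The 6 monocyte markers summed to 13.8 to 20.2 CPM in parental and 18.4 to 29.1 CPM in PS19 mice, with 0 of 6 called over the lines and with Chil3 and F10 at 0 in every E4H mouse. The 6 neutrophil markers summed to 35.1 CPM in PS/E3H replicate 4, 19.9 CPM in PS/E4H replicate 1 and 8.9 CPM in E2H replicate 1, and to 0.154 to 6.25 CPM in the other 18 mice; Ngp was called higher over the lines and S100a8 in PS/E4H (5.46 ± 1.41, adjusted p = 0.0277), and Ly6g was at 0 in every E3H, E4H and PS/E2H mouse. Among T cell, B cell and NK cell markers, 0 of the 16 tested were called over the lines, and Cd3g was called higher in PS/E4H (3.90 ± 1.10, adjusted p = 0.0381). These lists summed to 13.8 to 22.9, 0.324 to 3.74 and 0.0538 to 0.958 CPM over all mice, and Cd3d was at 0 in every E3H, E4H and PS/E2H mouse. The 6 astrocyte markers summed to 1725 to 2457 CPM in parental and 2998 to 4921 CPM in PS19 mice, with Gfap the only marker called over the lines.

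Without the 3 mice highest in neutrophil markers, 12 genes were called higher over the lines, a choice made after seeing the data. Among these mice, PS/E3H replicate 4 and PS/E4H replicate 1 were also the highest of their groups for 14 and 12 of the 16 genes. Leaving these PS19 mice out therefore also removes the highest values of their groups for most of the 16 genes. A choice of mice by neutrophil markers and a choice by these genes cannot be told apart here. Ccl2 (log2 fold change 0.51, adjusted p = 0.407), Ccl22 (0.96, adjusted p = 0.097), Cxcl9 (2.03, adjusted p = 0.0668) and Ccr2 (0.87, adjusted p = 0.0945) were no longer called, and Ccl3 (2.59), Ccl6 (2.31), Ccl9 (1.51) and Ccl4 (3.02) were. Ccl2, Ccl22 and Ccr2 were also lost without either PS/E3H replicate 4 or PS/E4H replicate 1 alone. The part of neutrophils and of the other cell types in the levels of these genes was not tested.

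**Figure D4:**
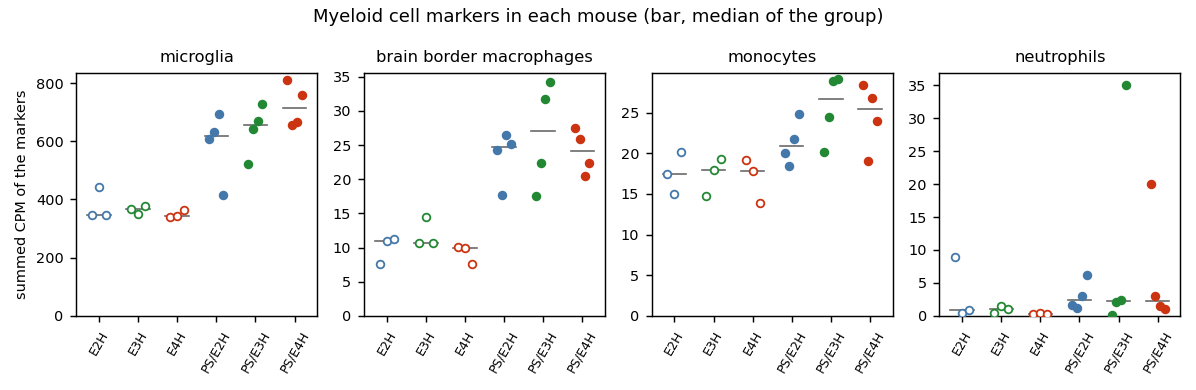
Summed CPM of 4 marker lists in each mouse, with a bar at the median of each group; open circles are parental mice and filled circles PS19 mice. Microglia sums are 341 to 444 CPM in parental and 416 to 811 CPM in PS19 mice, border macrophage sums do not overlap, and the neutrophil sum is highest in PS/E3H replicate 4 at 35.1 CPM.

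The comparisons of APOE genotypes asked whether the chemokine genes differed between alleles with or without the transgene. Between E2H and E3H 0 of 26 genes tested were called, between E4H and E3H 0 of 25 and between E4H and E2H 0 of 26. Among the PS19 mice, 0 of 30 were called in each of the 3 comparisons (PS/E2H or PS/E4H against PS/E3H, and PS/E4H against PS/E2H). All genes were called at 0.144%, 0.1% and 0.187% in the parental and 0.108%, 0.0197% and 0.109% in the PS19 comparisons. DESeq2 also called 0 of the 34 genes in each of the 6 comparisons. In the same order, edgeR's unadjusted p was under 0.05 for 2, 3, 2, 7, 2 and 7 genes, against 14.1%, 6.67%, 12.4%, 11.7%, 6.51% and 12.3% of all genes. The comparisons share groups, so that a mouse that stands apart enters several of them.

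Ccl5 in parental mice was 0.0265, 0.283 and 0.262 CPM in E2H, 0.664, 0.464 and 0.480 CPM in E3H and 0.0298, 0.146 and 0.229 CPM in E4H. In PS19 mice it was 0.691, 0.769, 0.861 and 1.92 CPM in PS/E2H, 0.225, 0.271, 0.478 and 0.599 CPM in PS/E3H and 0.857, 0.478, 0.244 and 1.09 CPM in PS/E4H. All E3H mice were above all E2H and E4H mice, whereas the PS/E3H mice lay below the PS/E2H mice without overlap. The log2 fold change was -1.97 ± 0.64 for E4H against E3H (adjusted p = 0.551) and 1.42 ± 0.46 for PS/E2H against PS/E3H (adjusted p = 0.403). Neither was called.

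Ccr1 was -1.79 ± 0.62 on the log2 scale in E4H against E3H (adjusted p = 0.585) and -1.67 ± 0.68 against E2H (adjusted p = 0.385), with the E4H mice below the others in each mouse, but it was not called. Cxcl12 read 54.9, 43.7 and 48.3 CPM in E2H, 65.1, 60.2 and 62.3 CPM in E3H and 54.8, 58.6 and 49.5 CPM in E4H. E3H mice were thus highest in each mouse. The log2 fold change of Cxcl12 was -0.36 ± 0.10 for E2H against E3H, with the smallest unadjusted p of that comparison (0.00546, adjusted p = 0.232), and -0.20 ± 0.07 for E4H against E3H (adjusted p = 0.585).

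Among PS19 mice, the interferon-induced Cxcl9 and Cxcl10 had their lowest group means in PS/E3H. Cxcl10 was 0.87 ± 0.37 on the log2 scale in PS/E2H and 1.16 ± 0.44 in PS/E4H against PS/E3H (adjusted p = 0.419 and 0.759), and Cxcl9 was 2.09 ± 0.65 and 1.70 ± 0.67 (adjusted p = 0.403 and 0.759). Ccl8 was lower in PS/E2H by -1.62 ± 0.66 against PS/E3H (adjusted p = 0.414) and differed by 1.86 ± 0.56 in PS/E4H against PS/E2H (adjusted p = 0.298). Ccl17, with 0.993, 1.64, 0.455 and 1.08 CPM in PS/E2H mice, differed by 1.18 ± 0.42 from PS/E3H (adjusted p = 0.403). Ccl27a was lower in each PS/E4H mouse than in each PS/E2H mouse (-0.38 ± 0.13, adjusted p = 0.329). None of these differences passed the adjustment.

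Groups without overlap were counted among the genes tested, 26, 25 and 26 in the parental comparisons and 30 in each PS19 comparison. E2H mice were apart from E3H mice for 4 genes (Cxcl13 and Ccl27a higher, Ccl5 and Cxcl12 lower), against 12.8% and 10.5% of all genes. E4H mice were apart from E3H mice for 5 genes, 0 higher and 5 lower (Cxcl16, Ccr1, Cxcl5, Ccl5 and Cxcl12, against 6.29% and 6.37% of all genes), and from E2H mice for 5 (Ccl2 higher, and Cxcl13, Ccr1, Cxcl5 and Ackr1 lower, 9.82% and 11.5%). In the PS19 comparisons this held for 1 gene (Ccl5) above PS/E3H in PS/E2H (2.6%, and 2.78% lower), for 0 between PS/E4H and PS/E3H (2.03% higher and 1.82% lower) and for 1 (Ccl27a) lower in PS/E4H than in PS/E2H (3.35%, and 3.47% higher).

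**Figure D5:**
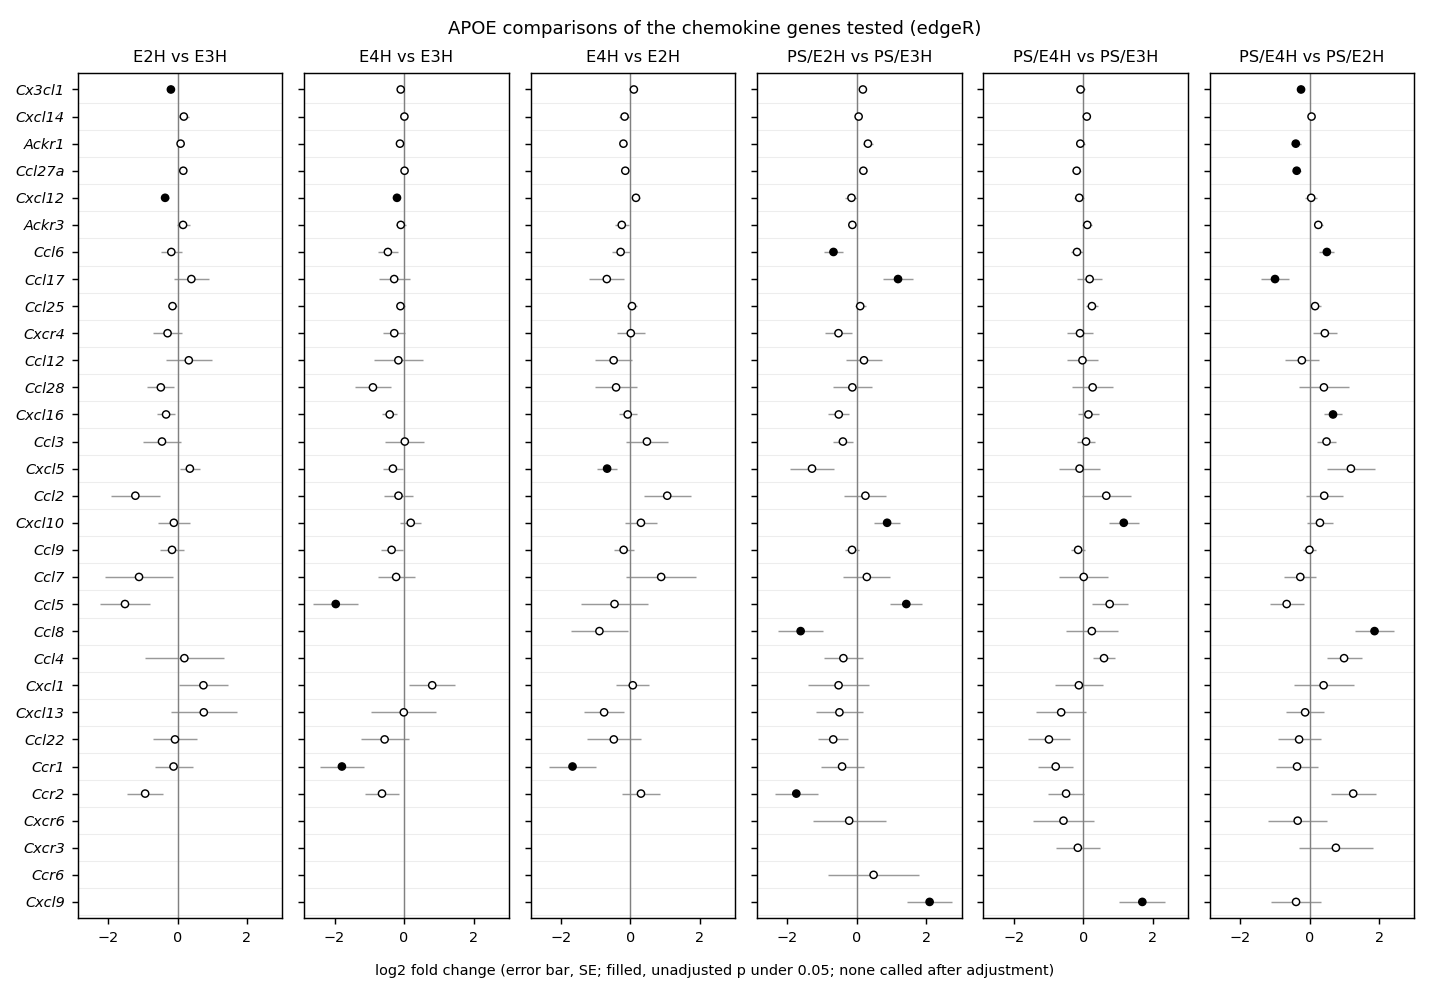
Log2 fold change with its SE for the genes tested in the 6 APOE comparisons, each named with the first group against the second; filled symbols had an unadjusted p under 0.05, and no gene was called after adjustment. The filled symbols number 2, 3, 2, 7, 2 and 7 from left to right.

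Other genes of the chemokine system were read from 4 lists. Of 13 other chemokine ligands, 6 were tested over the lines and 1, Ccl19, was called higher in PS19 mice (1.31 ± 0.36, adjusted p = 0.0118). Ccl19 guides dendritic cells and T cells through Ccr7. Of 15 other receptors, 9 were tested and 2 were called higher, the atypical receptor Ackr4 (1.44 ± 0.28, adjusted p = 5.80e-04), which takes up Ccl19, Ccl21 and Ccl25, and the chemerin receptor Cmklr1 (1.14 ± 0.15, adjusted p = 1.14e-05). Cx3cr1, the microglial receptor of Cx3cl1, had a log2 fold change of 0.70 ± 0.11 (adjusted p = 5.69e-05).

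Of 22 genes of receptor signalling, all tested, 6 were called higher (Rac2, Dock2, Vav1, Was, Rgs1 and Fgr), the largest being the Src family kinase Fgr (2.80 ± 0.34, adjusted p = 2.76e-06) and Rgs1, a brake on G protein signalling (2.32 ± 0.44, adjusted p = 5.40e-04). Dock2, which activates Rac in migrating leukocytes, rose by 1.33 ± 0.14 on the log2 scale (adjusted p = 3.53e-07). Of 25 inducers and transcription regulators, 23 were tested and 4 were called higher: Il1b (1.47 ± 0.41, adjusted p = 0.0119), Il10 (adjusted p = 0.00561, with no count in any E2H or E3H mouse), Irf7 (1.28 ± 0.26, adjusted p = 9.20e-04) and Irf8 (1.21 ± 0.14, adjusted p = 1.27e-06). The median log2 fold changes of the 4 lists were 0.50, 0.66, 0.34 and 0.35. These lists were chosen with earlier results of the data known. Across them 0 genes were called lower over the lines, and 0 genes were called in either direction in the 6 APOE comparisons. Of all genes tested, 2.24% were called higher and 0.367% lower over the lines, and 0.0197% to 0.187% were called in the APOE comparisons.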

How the data were processed

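Forebrain RNA of 21 mice was sequenced. As deposited, the authors' counts per gene and FPKM per gene came from reads trimmed with cutadapt and mapped to GRCm38.p5 with HISAT2, with transcripts quantified by StringTie; FPKM values are scaled by the authors to transcript length and library size. How whole counts were derived from StringTie is not given in the sources used here. All columns were matched to samples by their labels (0 were not).

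Counts were tested with edgeR 4.0.16 in R 4.3.3 (TMM factors, filterByExpr with a minimum count of 10 and a minimum total of 15, quasi-likelihood F test, Benjamini-Hochberg adjustment over all genes tested), in 9 comparisons of 2 groups, 1 fit over all mice with a term for APOE line and 3 interactions (adjusted p alone). The genes and lists were chosen with earlier results of these data known. By rule, genes called in any comparison were described mouse by mouse; Cx3cl1, Ccl5 and Cxcl12 were added after their values were seen. Alternatives used DESeq2 1.42.0 and limma 3.58.1, and tables used Python 3.11.15. On simulated counts, the fit over all lines recovered 78.6% of genes changed by a log2 of 1.5 and 84.4% at 2 (22325 genes). In PS/E4H against E4H the rates were 72.4% and 80.8% (20296 genes). Both are rates over the changed genes as a whole and were not split by level. Many of the chemokine genes have low counts, so the rates do not give the recovery for them. Total counts were 59265459 to 75932183 per mouse. Labels do not say whether mice of a group were littermates. The tests treat the mice as independent, and p-values would be too small if related mice were alike. Promoter windows were from RefSeq (GRCm38.p6).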

Additional observations from a re-analysis of the deposited data

Results flagged for a closer look

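In groups of 4 mice, the highest or lowest mouse was compared with the gap to its nearest neighbour over the range of the group. Of 99 pairs of a gene and a PS19 group, 9 had a mouse standing apart from the others, each time as the highest. The pairs share the same mice and low counts come in steps, so the number expected by chance was not derived. Ccl5 was 1.92 CPM in PS/E2H replicate 4 and 0.691 to 0.861 CPM in the other mice of its group. Ccl9 was 6.74 CPM in PS/E3H replicate 4 against 4.13 to 4.27 CPM, and Ccl27a was 52.7 CPM in PS/E3H replicate 1 against 40.1 to 41.2 CPM. Cxcl5 was 6.84 CPM in PS/E2H replicate 3 against 0.877 to 1.60 CPM, and Cxcl16 was 11.7 CPM in PS/E4H replicate 1 against 6.13 to 6.99 CPM.

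The other 4 were low values. Cxcl2 was 0.114 CPM in PS/E3H replicate 4 and 0 in the others, and Ccr6 was 0.145 CPM in PS/E4H replicate 1 and 0 in the others. Cxcl11 was 0.101 CPM in PS/E2H replicate 1 against 0.0650 to 0.0684 CPM. Cxcr3 was 0.455 CPM in PS/E2H replicate 3 against 0 to 0.0576 CPM.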

How the results depend on the processing

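No log2 fold change of a called gene changed direction: of 388 values under the alternatives, 316 stayed past the threshold and 72 did not. The number of genes called higher was 8 by DESeq2 and 2 with limma on log2(FPKM + 1) in PS/E2H (4 by edgeR), 2 with limma in PS/E3H (7), 5 with limma and 7 with a replicate block in PS/E4H (12), and 5 with limma over all lines (16). Adding 1 to FPKM shrinks the fold changes of genes mostly under 1 FPKM, and limma on log2(FPKM + 0.1) called 3, 7, 11 and 12 in the same order. Leaving out 1 mouse gave 0 to 5 in PS/E2H, 1 to 13 in PS/E3H, 6 to 13 in PS/E4H and 13 to 17 over all lines. The replicate block gave 5, 5 and 13 calls in PS/E2H, in PS/E3H and over all lines. Replicate numbers were not treated as pairs in the main fits, and pair correlations did not all exceed 0.1 in any comparison. That rule cannot exclude a shared litter or batch. In PS/E2H against E2H 3 of 3 numbers correlated best with their own, a hint from the data only. DESeq2 called 10 genes in PS/E3H, 14 in PS/E4H and 17 over all lines. Ccl5 was called over all lines by DESeq2 (log2 fold change 1.38, adjusted p = 0.013) but not by edgeR on the deposited counts. It was also called by limma on log2(FPKM + 0.1) (1.09, adjusted p = 0.0298) and by edgeR on counts divided by 4 (1.28, adjusted p = 0.0381). Every other alternative run on all the mice left it uncalled. The APOE comparisons and the interactions gave 0 under every alternative run. Counts in steps of about 4 limit what can be said of Ccl11, Cxcl2, Cxcl11, Ccr6, Cxcr3 and Cxcr6, and groups of 3 or 4 mice limit the calls within lines.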
